A study of Rattus norvegicus with 21 samples.

Results

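A set of 207 genes was described whose RNA was at least 4-fold higher in rat cerebral cortex than in hippocampus, out of 30560 Ensembl gene IDs in the deposited table. They were chosen on the measured values themselves. For each gene, the median normalized read count over 10 cortex libraries and over 10 hippocampus libraries was taken. A gene was kept where the cortex median plus 1 was at least 4 times the hippocampus median plus 1 and the cortex median was at least 100. 209 genes met both limits, and 2 of these are not members because the rule leaves out 3 IDs by name. The tissue difference of the 207 genes is therefore how they were found and is given as a description, with no test.

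The libraries came from male wild-type SD rats, 4 weeks old at the start and acclimated for 2 weeks. Exposed rats went through hypobaric hypoxia, which lowers both air pressure and oxygen as on a high mountain, at a simulated 28000 ft held for 5 min, in 6 cycles at intervals of 3 days. Tissue of exposed rats was collected either 24 h or 48 h later, and the controls were normoxic and untreated. Each tissue had 4 control libraries, 3 at 24 h and 3 at 48 h, so the 2 exposure times are read against the same control libraries. A further library carries a title of hippocampus at 24 h and a tissue label of cortex. It was placed in no group, and its values are given on their own.

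The cerebral cortex and the hippocampus both hold excitatory neurons, inhibitory neurons and glia, but their excitatory neurons differ in type. Cortex has layered projection neurons that send axons within the cortex and to deeper brain regions, and hippocampus has pyramidal cells of Ammon's horn and granule cells of the dentate gyrus. Genes that mark such cell types are read in bulk tissue as a difference between regions, and a dissection that takes in neighbouring tissue brings its RNA along. In bulk RNA, fewer cells of a type and less RNA per cell cannot be told apart. The deposited IDs come without gene names, so the members are given by ID, and neither their functions nor the labelled tissue could be read from known marker genes.

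Reads in genes numbered 11214566 to 19304803 per library, except in hippocampus control 1, which had 4654096. Before the values of the members, 5 libraries have to be named that stood apart. Besides the shallow hippocampus control 1, these were cortex control 3, cortex 24 h replicate 3, hippocampus control 2 and hippocampus 24 h replicate 2. Each of these 4 lay more than 0.3 away from its own tissue on a scale where 0 is the cortex median and 1 the hippocampus median. The scale was taken over both the genes higher in cortex and the 126 genes higher in hippocampus under the same limits, with both sets chosen again without the library being placed. The 5 libraries were picked after their values were seen, with a measure that uses the members, and results are given with and without them.

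The members spanned a wide range of levels. Their cortex median ran from 102.6 to 24654 normalized reads, with quartiles of 272, 722 and 1853, and their hippocampus median ran from 3.86 to 4112, with quartiles of 31.1, 87.6 and 273. These levels also depend on transcript length and are not compared between genes. The ratio of cortex to hippocampus ran from 4.01 to 68.2, with a median of 6.004. It lay between 4 and 5 in 61 members, between 5 and 10 in 102, between 10 and 20 in 21 and at 20 or more in 23. The set was thus mostly made of genes with a difference of a few fold and a small group with a much steeper one. Near the limit of the rule, the lowest ratios inside were 4.007, 4.023 and 4.023, and the highest outside were 3.972, 3.981 and 3.982. The lowest cortex medians inside were 102.6, 102.7 and 103.5, and the highest outside were 95.3, 95.5 and 97.1.

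The hippocampus was seldom without RNA of these genes. 196 of the 207 members had at least 1 read in each of the 21 libraries. 11 members had a hippocampus library at 0, and for 8 of them this was the shallow hippocampus control 1. Only 10 members had a hippocampus median under 10. All members together made up 2.79% ± 0.94 (SD, n = 4) of the normalized reads in control cortex, 2.61% ± 0.56 (SD, n = 3) at 24 h and 3.31% ± 0.35 (SD, n = 3) at 48 h. In hippocampus they made up 0.871% ± 0.828 (SD, n = 4) in controls, 0.882% ± 0.719 (SD, n = 3) at 24 h and 0.472% ± 0.233 (SD, n = 3) at 48 h.

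**Figure D1:**
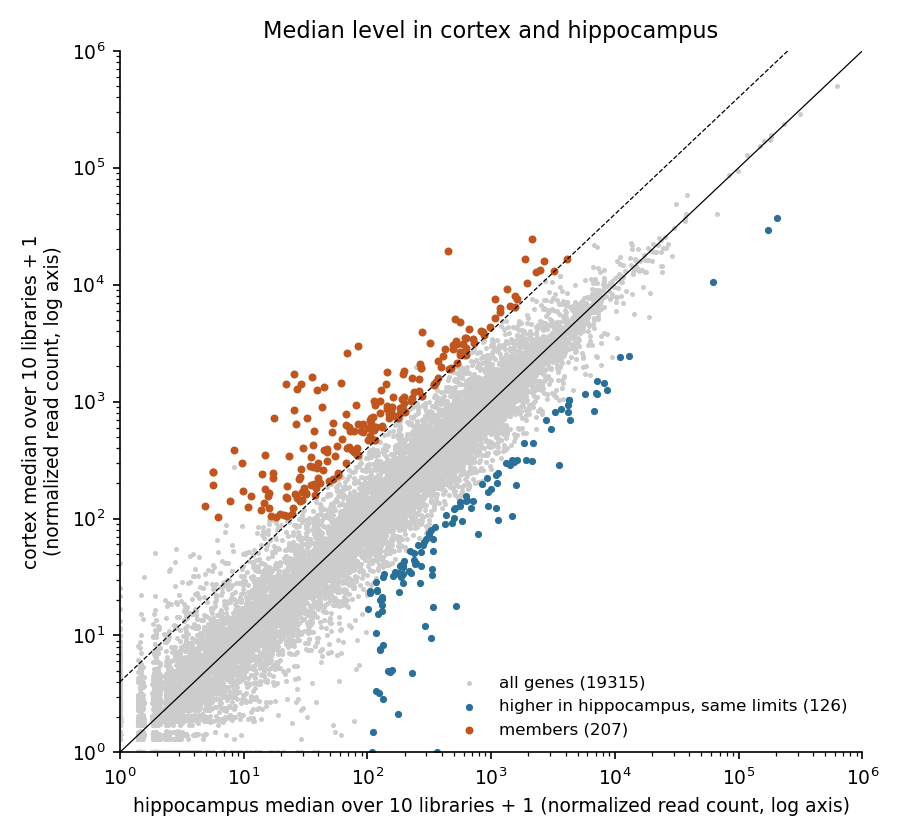
Median normalized read count plus 1 per gene over 10 hippocampus libraries (x axis) and 10 cortex libraries (y axis), both log axes, with the 207 members in orange, the 126 genes higher in hippocampus in blue and other genes in grey. The members lie on or above the dashed line of a 4-fold ratio (the solid line marks equal levels), with cortex medians from 102.6 to 24654.

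The next values give each member as a percentage of its own cortex median and then take the median over the 207 members in each library. In control cortex this was 105% in replicate 1, 118% in replicate 2, 34.6% in replicate 3 and 97.3% in replicate 4. Cortex at 24 h had 92.3%, 67.4% and 100.1% in replicates 2, 3 and 4, and cortex at 48 h had 96.5%, 105.5% and 112% in replicates 1, 2 and 3. Cortex control 3 was the low one, and cortex 24 h replicate 3 was next.

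In hippocampus the same measure was 19.7%, 56.3%, 13.9% and 13.6% in control replicates 1 to 4. At 24 h it was 46.9%, 15.7% and 9.94% in replicates 2, 3 and 4. At 48 h it was 12.8%, 8.94% and 15.3% in replicates 1, 2 and 3. Hippocampus control 2 and hippocampus 24 h replicate 2 were the high ones, and hippocampus control 2 lay above cortex control 3. The unassigned library had 25.2%, nearer the hippocampus libraries than the cortex libraries.

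**Figure D2:**
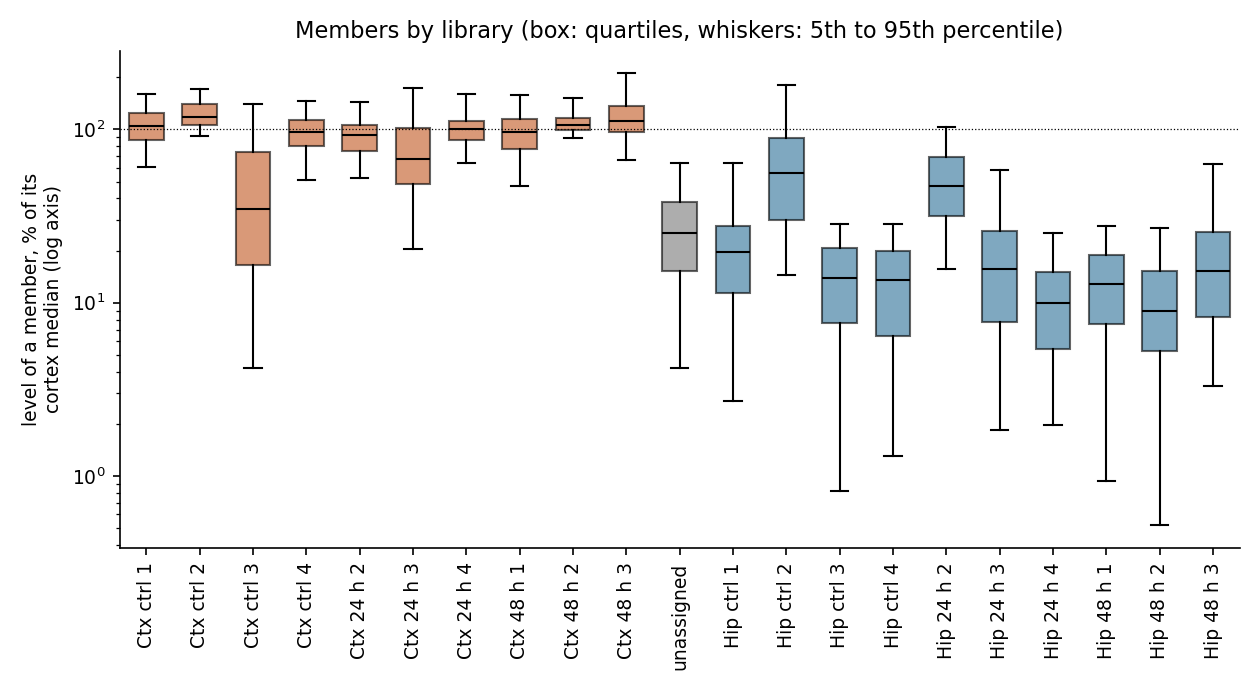
Each member's level as a percentage of its own cortex median (y axis, log scale) in every library (x axis), with boxes for the quartiles over the 207 members, a line for the median and whiskers from the 5th to the 95th percentile. The medians are low in cortex control 3 (34.6%) and high in hippocampus control 2 (56.3%) and hippocampus 24 h replicate 2 (46.9%).

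By group, these library medians averaged 88.6% ± 37.1 (SD, n = 4) in control cortex, 86.6% ± 17.1 (SD, n = 3) at 24 h and 104.8% ± 8.0 (SD, n = 3) at 48 h. In hippocampus they averaged 25.9% ± 20.5 (SD, n = 4), 24.2% ± 19.9 (SD, n = 3) and 12.35% ± 3.19 (SD, n = 3). The exposure groups of a tissue overlapped, and the SD was smallest at 48 h in both tissues, the time at which no library stood apart.

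The members were also counted gene by gene in the libraries that stood apart by their place between the tissues. Whether 1 common factor moved all members of a library was not tested. In cortex control 3, 133 members were under 50% of their cortex median, and in cortex 24 h replicate 3 there were 57, of which 41 were the same members. In the other cortex libraries 0 to 15 members were that low. Cortex control 3 held the lowest cortex value for 133 members and cortex 24 h replicate 3 for 39. In hippocampus the highest value was in control 2 for 114 members and in 24 h replicate 2 for 63.

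The members fell into unequal groups by how far they dropped in cortex control 3. 79 members were under 25% of their cortex median there, with a median of 12.6%, while the same members had 104%, 118% and 91.5% in control replicates 1, 2 and 4. 77 members were between 25% and 75%, with a median of 37.6%, and 51 were at 75% or more, with a median of 114.6%. In cortex 24 h replicate 3 the same 3 groups had medians of 63.6%, 71.3% and 75.2%. In hippocampus control 2 they had 32.0%, 71.5% and 68.5%, so the members lowest in cortex control 3 were also the lower ones there.

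The members above their cortex median were counted in hippocampus control 2 and hippocampus 24 h replicate 2. 41 members were above their cortex median in hippocampus control 2 and 13 in hippocampus 24 h replicate 2, with 2 in both. 11 members were above their cortex median in hippocampus control 2 and under 25% of it in hippocampus 24 h replicate 2. 18 members exceeded 150% in hippocampus control 2, 2 did so in hippocampus 24 h replicate 2, 1 in hippocampus control 1 and 0 in the other 7 hippocampus libraries. As a description over 207 genes, which share these libraries and were selected on them, Spearman's rho between the percentages in the 2 libraries was -0.085. Between cortex control 3 and cortex 24 h replicate 3 it was 0.056, and between cortex control 3 and hippocampus control 2 it was 0.315.

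The 2 gene sets, higher in cortex and higher in hippocampus, were read separately on the same 0 to 1 scale. Cortex control 3 lay at 0.80 by the cortex-high genes and at 0.04 by the hippocampus-high genes. It was thus low in the members without being high in the genes of the other tissue. Cortex 24 h replicate 3 lay at 0.42 and 0.20, hippocampus control 2 at 0.45 and 0.40, and hippocampus 24 h replicate 2 at 0.60 and 0.54. Those 3 libraries lay between the tissues by both gene sets. The unassigned library lay at 0.87 by the cortex-high and at 1.00 by the hippocampus-high genes. What moved these libraries was not tested.

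**Figure D3:**
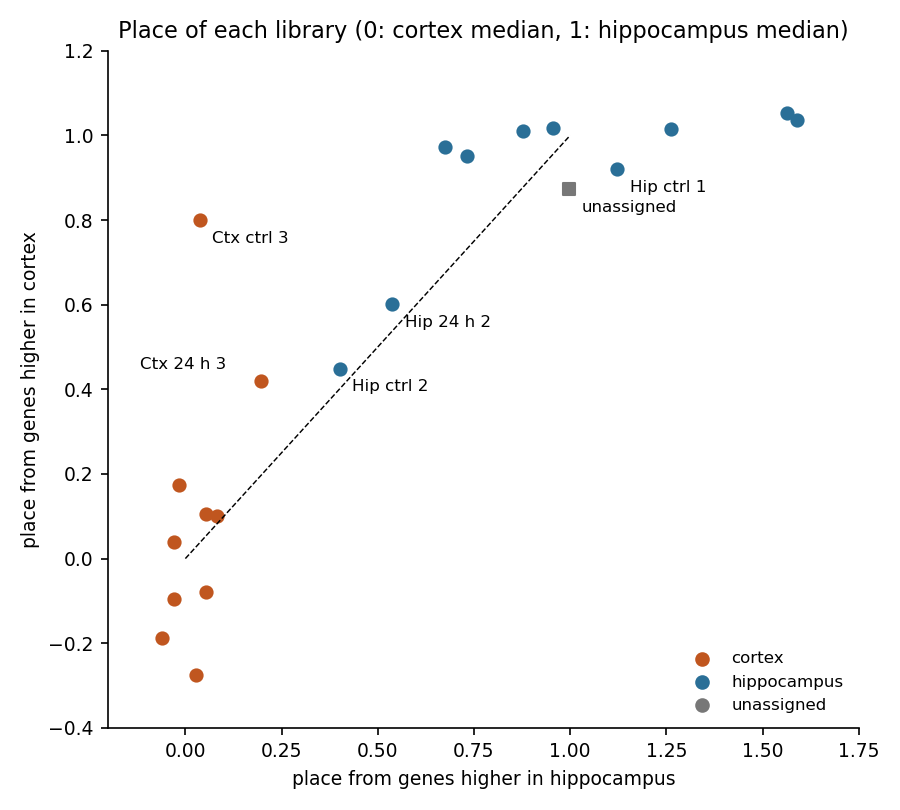
Place of each library between the tissue medians, where 0 is cortex and 1 is hippocampus, by the hippocampus-high genes (x axis) and by the cortex-high genes (y axis), with 1 point per library and a dashed line where both are equal. Cortex control 3 lies near the hippocampus end by the cortex-high genes (0.80) and at the cortex end by the others (0.04).

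The 23 members with a ratio of 20 or more were also read on their own. They were picked for a low hippocampus median over these same libraries. Most hippocampus libraries are low in them by that choice, and the values are a description only. Their median share of the cortex median was 10.7%, 62.8%, 0.985% and 1.81% in hippocampus control replicates 1 to 4. It was 38.8%, 2.14% and 2.35% at 24 h and 1.72%, 0.968% and 6.16% at 48 h. The unassigned library had 17.97%. The median was 6.16% or less in 7 hippocampus libraries and 10.7% or more in the other 3, hippocampus control 1, hippocampus control 2 and hippocampus 24 h replicate 2.

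4 of these 23 members, those with the largest ratios, are given as single genes, with the same limit. ENSRNOG00000057315 had a ratio of 68.2. Its control cortex values were 1736, 1944, 1743 and 1897 normalized reads, its values at 24 h were 1434, 1723 and 1119.5, and those at 48 h were 1076, 1597 and 1860.4. In hippocampus it had 384, 868, 10.2 and 9.99 in controls, 329.8, 9.66 and 34.9 at 24 h and 26.4, 1.62 and 22.4 at 48 h. The 2 tissues did not overlap for this gene, even with the libraries that stood apart, and it had 246 in the unassigned library.

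ENSRNOG00000005049 had a ratio of 63.8. In cortex it had 1894, 1653, 316 and 1199 in controls, 984, 1933 and 1112 at 24 h and 916, 1600.0 and 1870.3 at 48 h. In hippocampus it had 117, 349.5, 8.33 and 5.45 in controls, 164, 29.9 and 11.98 at 24 h and 10.99, 7.28 and 81.6 at 48 h. Its value in cortex control 3 was below that in hippocampus control 2, and this pair is the only overlap of the tissues.

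ENSRNOG00000005284 had a ratio of 48.6. In cortex it had 1527, 1955, 92.2 and 1368 in controls, 1347, 1842 and 1363 at 24 h and 1429, 1390.2 and 1612 at 48 h. In hippocampus it had 147, 1389, 13.9 and 9.99 in controls, 772, 26.1 and 29.9 at 24 h and 24.2, 12.9 and 93.9 at 48 h. Hippocampus control 2 reached a cortex level for this gene, and cortex control 3 fell among the hippocampus values.

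ENSRNOG00000047891 had a ratio of 47.6. In cortex it had 1476, 1410.3, 1158 and 955 in controls, 1047, 1284 and 1539 at 24 h and 1789, 1298 and 1248 at 48 h. In hippocampus it had 255, 1441, 7.404 and 3.63 in controls, 689, 18.4 and 33.9 at 24 h and 2.197, 3.23 and 174 at 48 h. Cortex control 3 was not low for this gene, unlike for ENSRNOG00000005284, and hippocampus control 2 was again at a cortex level.

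**Figure D4:**
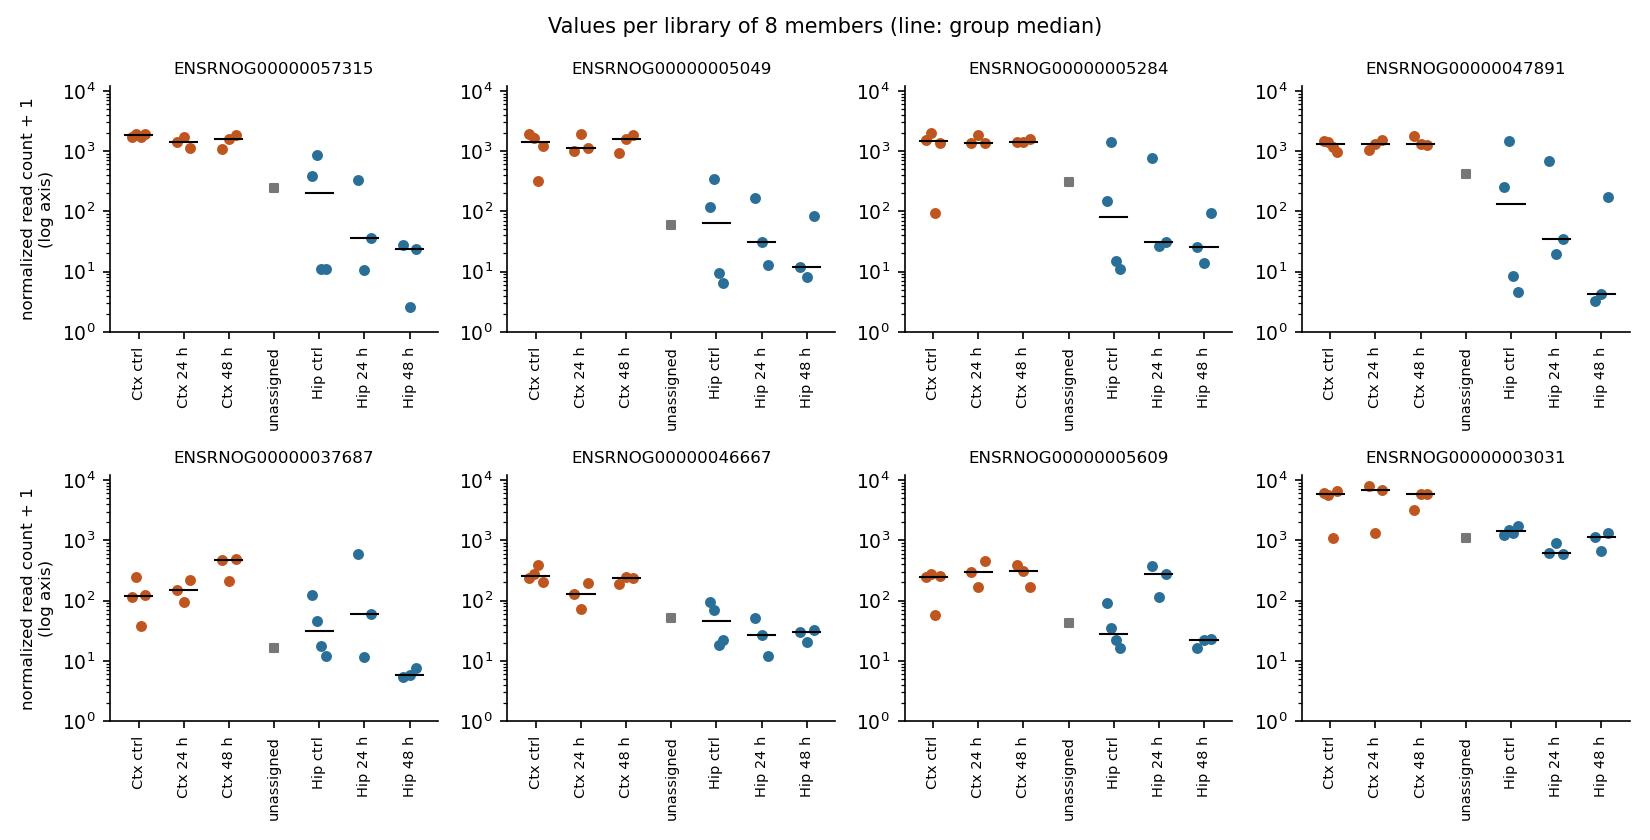
Normalized read counts plus 1 (y axis, log scale) of 8 members in every library, by tissue and exposure group, 1 point per library and a line at the group median. Hippocampus control 2 is the highest hippocampus library in the 4 members with the largest ratios, which were picked on these libraries. For ENSRNOG00000005284 it had 1389, and hippocampus 24 h replicate 2 had 772.

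Within the exposure groups, the ratio of the tissue medians was at least 4 in 165 members in controls, where 2.06% of all 15017 genes reached that ratio. It was reached by 131 at 24 h, where 1.9% of all genes did, and by 200 at 48 h, where 3.29% did. The median ratio over members was 5.61 in controls, 4.95 at 24 h and 8.34 at 48 h. 102 members reached 4 in all 3 groups, and 152 had their largest ratio at 48 h. With the 5 libraries that stood apart left out, none of which is a 48 h library, the counts were 192 in controls (2.93% of all genes) and 163 at 24 h (2.68%), and the median ratios were 7.99 and 6.47. Over all remaining libraries, 206 members kept a ratio of at least 4, where 2.89% of all genes had one. These ratios use the same libraries that chose the members.

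The overlap of the tissues depended on the same libraries. Each of the 10 cortex libraries was above each of the 10 hippocampus libraries in 11 members, against 0.519% of all genes. With those 5 left out, this held for 180 members, against 9.52%. Within groups it held for 46 members in controls (4.38% of all genes), 130 at 24 h (14.1%) and 198 at 48 h (21.5%). Without the 5 libraries it held for 205 members in controls (26.4%) and 200 at 24 h (28.7%). The choice of the members on these libraries sets these counts, and nothing is read from them.

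The members varied more between libraries of 1 group than genes in general. On the log2 scale, the median within-group SD was 0.703 for members in cortex, against 0.323 for all genes, and 1.22 in hippocampus, against 0.531. When the 5 were left out, it was 0.347 against 0.213 in cortex and 0.742 against 0.306 in hippocampus. The members were selected on these libraries, and the difference in spread was not tested.

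Exposure was tested in each tissue with limma on log2(value + 1) over all genes, which puts every fold change below on that scale. In cortex all 207 members passed the filter of a mean of at least 10, and in hippocampus 205 did. At an adjusted p under 0.05, limma called 0 members in each of the 3 cortex comparisons, the 3 hippocampus comparisons and the 2 comparisons of the responses between tissues. It called 0% of all genes in them too. edgeR also called 0 members in all 8 comparisons. DESeq2 called 0 members in 6, and 1 member in hippocampus at 24 h against control and at 48 h against 24 h, where it called 0.00935% and 0.00468% of all genes. It gave an adjusted p to 206 members in cortex, 189 in hippocampus and 198 in the comparisons of the responses, and the others could not be called. A call missed here does not show that the members kept their level. The median half-width of the 95% interval over members was 1.03 on the log2 scale in cortex and 1.83 in hippocampus, both at 24 h. Over all genes it was 0.54 and 0.88. At 24 h, the interval left no room for a change beyond 2-fold up or down in 49 of 207 members in cortex. It did so in 1 of 205 in hippocampus. Of all genes, this held for 66.4% in cortex and 35.9% in hippocampus, so the intervals were wider for the members.

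In cortex at 24 h, 12 members had an unadjusted p under 0.05 in limma, 1 higher and 11 lower than control, where 7.96% of all genes did. The median log2 difference over members was 0.09, against -0.02 over all genes, and 121 of 207 members were higher, where 47.1% of all genes were. Without the 5 libraries the median was -0.18 and 72 of 207 members were higher, where 48.2% of all genes were. The median was -0.28 without cortex control 3 alone and 0.30 without cortex control 2 alone. 9 members had all 24 h libraries below all control libraries, where 4.98% of all genes did, and 0 had them all above, where 4.21% did. In the libraries left without the 5, where fewer libraries make a gap more frequent, these counts were 52 (20.6% of all genes) and 21 (16.3%).

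In cortex at 48 h, 6 members had an unadjusted p under 0.05 in limma, 3 in each direction, where 3.48% of all genes did. The median log2 difference from control was 0.40, against 0.01 over all genes, and 162 of 207 members were higher, where 50.9% of all genes were. Without cortex control 3 the median was 0.01, and with library weights, which count a library less the more it departs from its group, it was 0.06. It was 0.57 without cortex control 2. With those 5 left out, it was also 0.01, with 106 of 207 members higher, where 50.8% of all genes were. 1 member had all 48 h libraries above all controls, where 3.61% of all genes did, and 1 had them all below, where 5.5% did. With the 5 libraries left out the counts were 2 (5.47%) and 9 (7.49%).

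Between the 2 exposure times in cortex, 12 members had an unadjusted p under 0.05 in limma, 11 of them higher at 48 h, where 11.3% of all genes passed. The median log2 difference was 0.32, and 164 of 207 members were higher at 48 h, where 52.9% of all genes were. It was 0.16 without cortex 24 h replicate 3 alone, 0.18 with library weights and 0.41 without cortex 48 h replicate 1 alone. 28 members had all 48 h libraries above all 24 h libraries, where 12.5% of all genes did, and 2 had them all below, where 10.1% did. The share above was thus near that of all genes. With the 5 libraries left out the counts were 42 (19.2%) and 20 (16%). Leaving the 5 out, the median was 0.16 and 139 of 207 members were higher, where 52.7% of all genes were.

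In hippocampus at 24 h, 6 members had an unadjusted p under 0.05 in limma, 2 of them higher than control, where 2.13% of all genes did. The median log2 difference over members was -0.06, and 99 of 205 members were higher, where 53.1% of all genes were. It was -0.72 without hippocampus 24 h replicate 2 and 0.51 without hippocampus control 2, and library weights gave 0.76, so the direction for the members as a group turned on single libraries and on how they were weighted. 1 member had all 24 h libraries above all controls, where 2.24% of all genes did, and 2 had them all below, where 1.83% did. With the 5 libraries left out the counts were 32 (11.5%) and 42 (12.4%), and the median was -0.06, with 92 of 196 members higher, where 50% of all genes were.

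In hippocampus at 48 h, 6 members had an unadjusted p under 0.05 in limma, 0 of them higher than control, where 1.6% of all genes did. This count depended on the method. An unadjusted p under 0.05 was reached by 36 members in DESeq2 (3.46% of all genes) and 17 in edgeR (3.04%), 0 of them higher. The median log2 difference over members in limma was -0.64, against 0.02 over all genes, and 24 of 205 members were higher, where 51.7% of all genes were. 13 members had all 48 h libraries below all controls, where 1.62% of all genes did, and 0 had them all above, where 1.8% did. The median was -0.23 without hippocampus control 2 and -0.36 with library weights. It was -0.94 in edgeR, in DESeq2 and with the replicate number as a block. Of 22 alternative fits, 1 had the other sign, the one without the 5 libraries. When the 5 were left out, the median was 0.01 and 99 of 196 members were higher, where 51.2% of all genes were. No overlap was then seen in 9 members higher (7.62% of all genes) and 28 lower (8.78%).

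Between the 2 times in hippocampus, 6 members had an unadjusted p under 0.05 in limma, 0 of them higher at 48 h, where 0.166% of all genes did. An unadjusted p under 0.05 was reached by 25 members in DESeq2 (0.594% of all genes) and 15 in edgeR (0.373%), 0 of them higher. The median log2 difference in limma was -0.62, with 21 of 205 members higher at 48 h, where 51% of all genes were. 6 members had all 48 h libraries below all 24 h libraries, where 1.7% of all genes did, and 0 had them all above, where 2.26% did. The median was -0.04 without hippocampus 24 h replicate 2 and -1.10 without hippocampus 24 h replicate 4. With library weights it was -1.09, and 61 of 205 members had an unadjusted p under 0.05 in limma, all lower at 48 h, where 11.4% of all genes did. In the remaining libraries the median was -0.02 and 95 of 196 members were higher, where 48.2% of all genes were. No overlap was then seen in 3 members higher (4.2% of all genes) and 6 lower (3.27%).

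**Figure D5:**
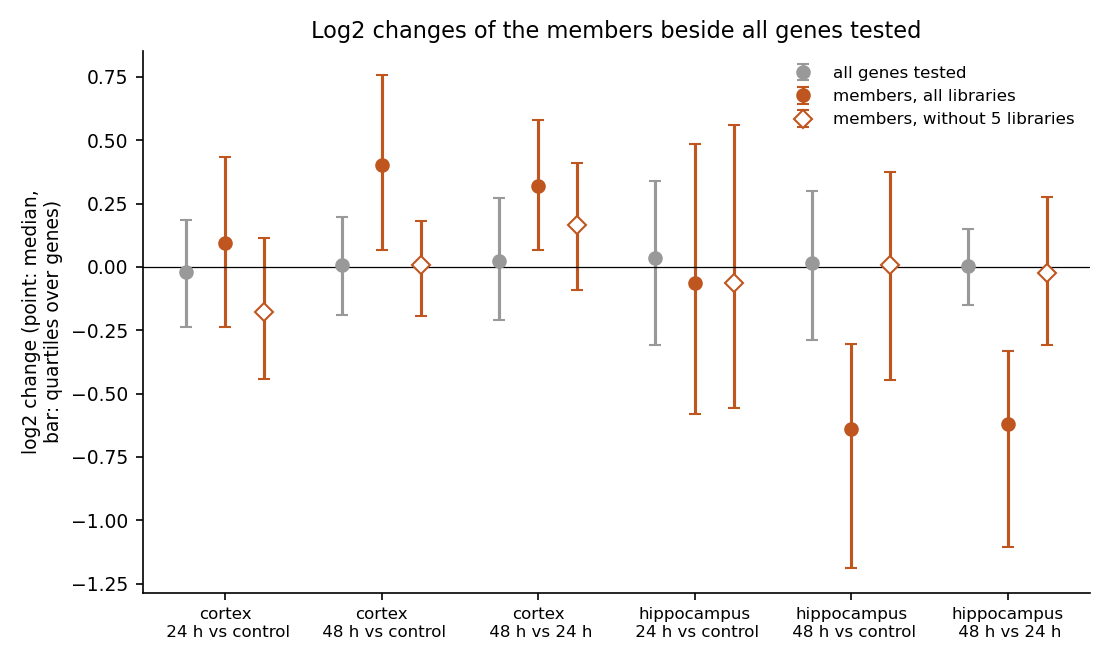
Log2 differences of the members between exposure groups in cortex and in hippocampus, with all libraries (filled) and without the 5 that stood apart (open), beside all genes tested (grey). Points are medians and bars span the quartiles over genes, and the median of the hippocampus members at 48 h against control is -0.64 with all libraries and 0.01 without the 5.

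The difference between the tissues in their response was tested directly as an interaction in limma over all 20 libraries. At 24 h, 3 members had an unadjusted p under 0.05, where 3.48% of all genes did. The median of hippocampus response minus cortex response was -0.10 over members, against 0.07 over all genes. The median over members was -0.76 without hippocampus 24 h replicate 2. Other single libraries turned its sign: it was 0.47 without hippocampus control 2, 0.43 without hippocampus 24 h replicate 4 and 0.27 without cortex control 3. It was 0.10 with the 5 libraries left out, against 0.01 over all genes, and 0.84 with library weights, against 0.02. At 48 h, 8 members had an unadjusted p under 0.05 in limma, 0 of them with a higher response in hippocampus, where 1.32% of all genes did. An unadjusted p under 0.05 was reached by 37 members in DESeq2 (2.74% of all genes) and 26 in edgeR (2.62%), 0 of them higher. The limma median at 48 h was -1.15, against 0.01 over all genes, and 15 of 207 members had a higher response in hippocampus. It was -0.73 without cortex control 3, -0.61 without hippocampus control 2 and -0.46 with library weights. It was -1.38 without hippocampus control 4 and -1.25 in edgeR and in DESeq2. Of 31 alternative fits, 1 had the other sign, the one without the 5 libraries. With those 5 left out, it was 0.01, the same as over all genes (0.01), with 104 of 207 members higher in hippocampus. The share of all genes with a higher response in hippocampus was not counted. The quartiles over all genes at 48 h were -0.29 and 0.32 with all libraries, and -0.21 and 0.22 without the 5.

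4 members are named for exposure, those with the smallest p in each direction among the comparisons of 24 h and 48 h with control in each tissue. ENSRNOG00000005609 had control values of 90.6, 33.5, 21.3 and 15.4 in hippocampus, 379, 116 and 274 at 24 h and 15.4, 21.03 and 22.4 at 48 h. The 24 h libraries were above all control and all 48 h libraries. The log2 difference at 24 h from control was 2.81 (SE 0.61, 95% interval 1.45 to 4.17, limma adjusted p = 0.851), and that of 48 h from 24 h was -3.50 (SE 0.65, 95% interval -4.95 to -2.05, limma adjusted p = 1). DESeq2 called both, with log2 differences of 2.80 (DESeq2 adjusted p = 0.0465) and -3.70 (DESeq2 adjusted p = 0.000385).

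In cortex the same gene had 242, 279, 56.5 and 250.4 in controls, 302, 164 and 461 at 24 h and 392, 311 and 165 at 48 h, and the groups overlapped. Its log2 difference at 24 h there was 0.69 (limma adjusted p = 0.777). The response at 24 h was 2.12 larger in hippocampus on the log2 scale (limma interaction, adjusted p = 0.856), so the tissues were not shown to differ.

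ENSRNOG00000003031 had 1217, 1501, 1342 and 1719 in hippocampus controls, 615, 885 and 592 at 24 h and 1127, 655 and 1322 at 48 h. All 24 h values were below all control values, and the 48 h values overlapped both. The log2 difference at 24 h was -1.06 (SE 0.28, 95% interval -1.68 to -0.44, limma adjusted p = 0.851). In cortex it had 6042, 5594, 1112 and 6596 in controls, 7999, 1342 and 6738 at 24 h and 3146, 5803 and 5898 at 48 h, with the 2 low values in cortex control 3 and cortex 24 h replicate 3.

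ENSRNOG00000037687 had 115, 247, 37.5 and 123 in control cortex, 148, 92.8 and 216 at 24 h and 472, 206 and 483 at 48 h. Replicates 1 and 3 at 48 h were above all controls, and replicate 2 lay among them. The log2 difference at 48 h was 1.74 (SE 0.58, 95% interval 0.46 to 3.03, limma adjusted p = 0.885). In hippocampus it had 121, 44.4, 16.7 and 10.9 in controls, 592, 10.6 and 57.9 at 24 h and 4.39, 4.85 and 6.71 at 48 h, where the highest value was that of 24 h replicate 2.

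ENSRNOG00000046667 had 234, 277, 387 and 201 in control cortex, 128, 70.7 and 194 at 24 h and 189, 245 and 236 at 48 h. Its 24 h values were all below its control values, by a narrow gap between 194 and 201. The log2 difference at 24 h was -1.13 (SE 0.33, 95% interval -1.87 to -0.40, limma adjusted p = 0.602). Cortex control 3 held its highest cortex value, unlike most members. In hippocampus it had 94.9, 69.7, 17.6 and 20.9 in controls, 50.7, 26.1 and 10.98 at 24 h and 28.6, 19.4 and 31.3 at 48 h, and the groups overlapped.

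The unassigned library was read against both tissues. 206 members were at or under the highest hippocampus library in it, and 87 were at or above the lowest cortex library. Leaving the 5 out, 195 members were under the lowest cortex library, 94 were above the highest hippocampus library and 87 lay between the tissues. The choice of the members sets these counts in part. No share of all genes is given beside them, and nothing is read from them.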

How the data were processed

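Per the labels' protocols, RNA was taken up in TRIzol and a stranded mRNA kit made the libraries. fastp 0.20.0, HISAT2 2.1.0 and featureCounts 2.0.1 are named, per the submitters' processing notes, and the build, annotation, strand setting and filter were not given in the sources used here. Each deposited signal is the authors' read count of a gene over its library's size factor. Whole reads were recovered for 100% of values within 0.001, and in 4 columns the factor was too near 1 for an automatic check. 0 columns were left over.

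Groups came from titles and tissue and treatment labels. Rats of a group were separate animals, and the labels do not tie replicate numbers to a rat across tissues. The test was limma 3.58.1 (R 4.3.3) on log2(value + 1) (intensity trend, two-sided, Benjamini-Hochberg over all genes, threshold 0.05), for genes with a mean of at least 10. That left 14783 genes in cortex, 15028 in hippocampus and 15017 in both. The scale understates changes of low genes. edgeR 4.0.16 and DESeq2 1.42.0 on recovered reads were alternatives, as were scaling, filter, pseudocount, a replicate block and leaving out libraries. Leaving out the 5 libraries and library weights were added after seeing the data. Only the limma test of 24 h against control was checked on simulated data, in each tissue. The other comparisons, edgeR and DESeq2 were not checked in this way.

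The members and lists were chosen with earlier results of these data known. The GRCr8 reference table of 47357 genes holds 0 Ensembl IDs, so 0 members were paired with a name, and the 18 gene lists, the marker check, the promoters and the planned rule for named genes (which needs symbols) could not be applied. In its place 8 IDs are named by a rule set after values were seen: the 4 largest ratios, and, in each tissue, the member with the lowest p that was higher and the one that was lower than control.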

Additional observations from a re-analysis of the deposited data

Results flagged for a closer look

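In 26 checks of groups of 4 libraries, 6 found a highest or lowest library whose gap to the next exceeded Dixon's critical share of the group's range, which chance gives in about 1 in 20. Hippocampus control 2 was far above the other 3 control libraries in the median share of the cortex median (56.3%), in the members' share of all normalized reads (2.11%) and in ENSRNOG00000005284 (1389 normalized reads), and far below them in its place between the tissues by the cortex-high genes (0.45). Hippocampus control 1 was far below the others in reads (4654096). Cortex control 3 was far below the others in ENSRNOG00000005609 (56.5 normalized reads). By the same measure hippocampus control 2 was far above the other controls in 79 of the 207 members, where it was in 2.45% of all genes tested in hippocampus. Cortex control 3 was far below the others in 14 members and far above in 4, where it was in 2.11% and 6.02% of all genes tested in cortex. The members were chosen on these libraries, so the chance rate above is no reference for these counts.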

How the results depend on the processing

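The number of members was 207 with the ratio limit of 4, 348 with a limit of 3, 66 with a limit of 8 and 115 with means in place of medians (102 shared). Leaving out 1 library at a time gave 189 to 237, leaving out the 5 libraries gave 288 (206 shared), and medians of controls alone gave 191 (159 shared). Of 194 alternatives over the 8 comparisons, 191 called 0 members. Library weights in limma called 11 members between 48 h and 24 h in cortex, where 9.03% of all genes were called. DESeq2 called 1 member in hippocampus at 24 h against control and 1 at 48 h against 24 h, ENSRNOG00000005609 in both, and 0 to 145 genes of all genes per comparison. The cause was not tested. Leaving out 1 library at a time moved the number of members with an unadjusted p under 0.05 in limma, and the share of all genes moved too. In cortex it ran from 7 to 29 at 24 h, 4 to 11 at 48 h and 3 to 30 between the times, and in hippocampus from 4 to 18, 2 to 14 and 2 to 26. For the difference between tissues it ran from 2 to 9 at 24 h and 2 to 24 at 48 h. In the fits with the highest counts, 12.2%, 3.31% and 16.2% of all genes passed in cortex, in the same order. In hippocampus 3.53%, 2.7% and 1.58% of all genes passed in such fits. For the difference between tissues 2.02% and 2.44% did.

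With the replicate number as a block, 0 members were called in each of the 8 comparisons. In cortex, 23 members then had an unadjusted p under 0.05 in limma at 24 h (5.3% of all genes). There were 17 at 48 h (4.87%) and 14 between the times (8.88%). Hippocampus had 7 at 24 h (1.42%), 31 at 48 h (4.47%) and 26 between the times (0.725%). For the difference between tissues there were 6 at 24 h (2.52%) and 29 at 48 h (1.55%). The labels do not say whether the numbers pair the samples. Same-numbered libraries of the 2 tissues correlated from -0.29 to 0.14 in 10 pairs (3 over 0.1). Within tissues they correlated from -0.49 to 0.34 in 16 pairs (8 over 0.1). Different-numbered libraries of the 2 tissues correlated from -0.26 to 0.33. With so few libraries per group, these values cannot decide whether the numbers mark the same rat.

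The log2 difference of ENSRNOG00000005609 in hippocampus at 24 h ran from 2.45 to 3.41 over the alternatives, and that of 48 h against 24 h from -3.99 to -3.03. That of ENSRNOG00000003031 ran from -1.25 to -0.96 (limma, edgeR and DESeq2 adjusted p 0.327 to 1), of ENSRNOG00000037687 from 0.82 to 2.15 (adjusted p 0.407 to 1) and of ENSRNOG00000046667 from -1.47 to -0.57 (adjusted p 0.153 to 1). Leaving out the shallow hippocampus control 1 left 0 members called in hippocampus at 24 h, with a median interval half-width over members of 1.94 against 1.83. Over all genes the half-width was 0.60 against 0.88, so the intervals narrowed for genes in general and not for the members.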
